A study of Mus musculus with 12 samples.

Results

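Minoxidil-treated mouse back skin was followed over 3 weeks in 6 readings, the MXD channels of the 6 arrays that carried MXD-treated RNA, out of 24 channels on 12 arrays in the series. All mice were 8-week-old male C57BL/6 mice with a shaved back, and every group received 200 µL of its liquid once a day. The MXD group received 3% minoxidil in the vehicle of propylene glycol, ethanol and water, the VC group received that vehicle alone, and the N-CE group received 10% of a Notocactus ottonis cell extract. Whole back skin was taken at 1W, 2W and 3W, and the RNA of 6 mice was combined into 1 pool per group and week. Each MXD pool was read once with Cy3 and once with Cy5 against the VC pool of its week on 2 dye-swap arrays. The members were chosen by the label alone, as the channel whose dye stands after MXD in the sample title. Each week is therefore 1 pool, its 2 readings are technical, and no test between weeks is possible. The 4 arrays of a week lie on 1 slide, so week and slide cannot be told apart, and the VC channel of the same 6 arrays is given beside the main results.

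Hair follicles cycle between growth (anagen), regression (catagen) and rest (telogen). In anagen, matrix cells above the dermal papilla divide and build the hair shaft, whose cells fill with hair keratins and then with the keratin-associated proteins that bind the keratin filaments together. The inner root sheath moulds the shaft, and melanocytes of the bulb hand over pigment. Minoxidil is a vasodilator applied to the scalp against hair loss. Its sulfated form, made by sulfotransferases of skin, opens ATP-sensitive potassium (KATP) channels. Shaving, daily solvents and hair growth itself also touch the epidermis, the dermis with its fat and immune cells, and the thin sheet of striated muscle under mouse skin, so whole skin reports on all of these together.

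Values are log2 processed signals, quantile normalized over the 3 weeks within each dye. A probe entered a comparison of 2 weeks when it was well above background in both readings of at least 1 of them, and it was called higher or lower when it differed at least 2-fold in the same direction in both dyes. In what follows, rose and fell are used only for such calls, and ± is the SD over the 2 dyes. Of 41098 probes read in all 6 MXD channels, 26374 were well above background in 1 week or more and 22953 in all weeks. The share of spots well above background lay between 59.9% and 68.1% in the 6 MXD channels. Across probes measured in both weeks, which are not independent, the differences in Cy3 and Cy5 correlated with r = 0.878 for 2W over 1W, 0.818 for 3W over 2W and 0.874 for 3W over 1W. No spot was marked as saturated in any channel. The number of arrays limits the precision of every value.

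Defining markers of whole skin were present. Krt5, Krt14 and Krt10 of keratinocytes, Col1a1, Col1a2 and Col3a1 of fibroblasts and 4 of 4 adipocyte markers were well above background in all 3 weeks. So were the 3 markers each of skeletal muscle, endothelium, macrophages and mast cells. Of the melanocyte markers, Tyr was below background at 1W and Tyrp1 and Dct were not. Of the outside tissues, 2 of 3 liver markers and 2 of 3 brain markers were in no week well above background in both MXD readings. The remaining liver marker was so in all 3 weeks, and the remaining brain marker was not. The summed marker signal moved between weeks for most cell types, and these values belong beside every list below. From 1W to 2W the log2 sum changed by -0.33 ± 0.01 for keratinocytes, -0.64 ± 0.01 for fibroblasts, -0.75 ± 0.18 for skeletal muscle, -1.24 ± 0.06 for macrophages and 0.86 ± 0.12 for melanocytes. In the VC channel of the same arrays these sums changed by -0.18 ± 0.25, 0.37 ± 0.01, -0.16 ± 0.07, -0.50 ± 0.24 and 0.33 ± 0.20. In bulk skin, fewer cells of a type and less RNA per cell cannot be told apart.

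The largest shift in MXD skin lay between 1W and 2W. From 1W to 2W, 1071 of 26041 probes rose (4.11%) and 1466 fell (5.63%). The VC channel of the same arrays had 406 higher probes (1.54%) and 80 lower ones (0.304%). From 2W to 3W, 599 probes rose in MXD (2.33%) and 643 fell (2.5%), against 1.31% and 2.03% in VC. Between 1W and 3W, 860 probes rose (3.35%) and 673 fell (2.62%), against 3.69% and 1.77% in VC. The plot of called shares sets these side by side. Each count of called list members below is to be read beside the share of its own comparison. The E1A spike-in controls give another scale. Scaling to them moved the median of all MXD probes by 0.35, 0.12 and 0.46 for the 3 comparisons in this order, and the split of higher against lower calls was then 1990 to 372, 800 to 450 and 1943 to 167. In VC the same scaling moved the median by -0.49, 0.42 and -0.07, so for 2W over 1W the 2 groups moved in opposite directions. The VC split was then 155 to 505, 978 to 115 and 823 to 641. On that scale lower probes of the first step were therefore not more frequent in MXD than in VC. All differences below are relative to the bulk of the probes of a reading. Contrasts between MXD and VC can depend on this choice, also where it is not stated. The MXD median of no list named below for 2W over 1W changed sign under that scaling, except the follicle stem cell, oxidative phosphorylation and reference lists.

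**Figure D1:**
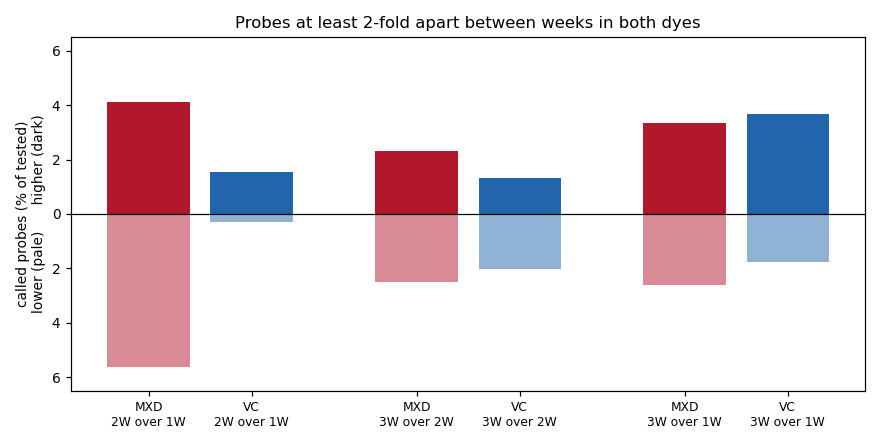
Share of tested probes, in percent, that were at least 2-fold higher (dark, upward) or lower (pale, downward) between 2 weeks in both dyes, for the MXD channels (red) and the VC channels of the same 6 arrays (blue). The downward bar of probes that were lower at 2W than at 1W is the longest in MXD at 5.63% and the shortest in VC at 0.304%, a contrast that was absent when both channels were scaled to the spike-in controls (372 and 505 lower probes).

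The 2 directions of the first step differed, on the quantile scale, in how far VC skin shared them, on both sets of arrays that carried VC RNA. These medians and shares were not computed with spike-in scaling. It moved the median of all probes by 0.35 in MXD and -0.49 in VC for this step. The contrast between the 2 directions may therefore not hold on that scale. The probes that rose in MXD from 1W to 2W had a median log2 difference of 1.52 in MXD and 0.86 in VC, and 34.9% of the 1033 also tested in VC rose there too. The probes that fell in MXD had a median of -1.34 in MXD and -0.35 in VC, and 3.29% of 1458 fell in VC as well. Over all probes tested, VC called 406 higher (1.54%) and 80 lower (0.304%). The second share could therefore not be large, and the 2 shares are not to be compared without these counts. VC skin was also read on the 6 N-CE arrays of the same slides. There these 2 groups of probes had medians of 0.86 and -0.44, and 35.6% and 7.25% were called in the same direction. The count of VC calls was less stable than these medians. On the N-CE arrays 1295 VC probes were higher at 2W than at 1W (4.89%) and 301 were lower (1.14%). On the MXD arrays the 2 dyes correlated with r = 0.638 for VC in this comparison, below the 0.878 of MXD, and a call needs both dyes. By 3W over 1W, 83.6% of the 830 probes that rose in MXD and were tested in VC had also risen in VC, and 64.3% of 742 on the N-CE arrays. Of the 665 probes that fell by then and were tested in VC, 40.3% had also fallen there, with a VC median of -1.05, and 29.5% of 658 on the N-CE arrays. These MXD values chose the probes, so their size in MXD is a description and the VC value is the one to read. No test of the difference between MXD and VC was possible with 1 pool each.

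Hair shaft genes were among the highest rises of the first step. Among the 12 measured hair shaft keratins, 10 rose from 1W to 2W and 0 fell, with a median log2 difference of 2.12 ± 0.25, while the median over all probes measured in both weeks was 0.02. Krt84, a type II hair keratin (probe at chr15:101355699-101355758, mm9), gave log2 signals in Cy3 and Cy5 of 7.93 and 7.96 for 1W, 13.76 and 13.88 for 2W and 13.52 and 13.51 for 3W. It was low at 1W and high in both later weeks, with no overlap between the readings of 1W and the rest. Its rise of 5.88 ± 0.07 from 1W to 2W (58.8-fold) was the largest of any named probe measured in both weeks. In VC it read 7.38 and 7.51 for 1W, 12.35 and 12.51 for 2W and 13.50 and 13.40 for 3W, a difference of 4.99 ± 0.02 to 2W and a further 1.02 ± 0.18 to 3W. Krt33b, a type I keratin of the hair cortex (chr11:99885054-99885113, mm9), read 13.90 and 14.05 for 1W, 16.47 and 16.50 for 2W and 16.43 and 16.43 for 3W. Its readings of 2W and 3W were close together and both above those of 1W. It rose by 2.51 ± 0.09 in MXD, and the VC difference was 1.97 ± 0.27. Krt86 and Krt87 rose by 3.14 ± 0.03 and 3.24 ± 0.09. The remaining pair, Krt33a and Krt35, differed by 0.75 ± 0.07 and 0.65 ± 0.11 and were not called.

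From 2W to 3W none of the 12 hair shaft keratins was called in either direction in MXD. The median of -0.28 ± 0.03 lay below 0, and it was 0.84 ± 0.14 in VC. The MXD pool was already near its later level at 2W, with a 3W over 1W median of 1.99 ± 0.03, while the VC pool passed from 1.30 ± 0.05 at 2W to 2.19 ± 0.10 at 3W. On the N-CE arrays the VC medians were 1.96 ± 0.31 for 2W over 1W and 0.78 ± 0.31 for 3W over 2W. In N-CE skin, the median 2W over 1W difference was 4.57 ± 0.15.

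Keratin-associated proteins, the cysteine- or glycine- and tyrosine-rich proteins laid down between keratin filaments late in shaft formation, moved with the keratins. All 40 of the 43 Krtap genes that passed the filter were higher at 2W than at 1W in both dyes, and 39 were called. The median was 2.56 ± 0.06 in MXD and 2.10 ± 0.35 in VC, where 33 were called. In N-CE it was 4.97 ± 0.08. With both channels scaled to the spike-in controls, the MXD and VC medians were 3.07 ± 0.33 and 1.68 ± 0.61, and those of the hair shaft keratins 2.46 ± 0.04 and 0.88 ± 0.35. The size of the difference varied between families. The 6 measured genes of family 19, which are rich in glycine and tyrosine, had a median of 3.68 with a range from 2.59 to 4.42, the 2 genes of family 31 one of 4.47, and the 4 genes of family 5 one of 1.60. Krtap19-2 read 11.68 and 11.90 for 1W, 16.19 and 16.22 for 2W and 16.22 and 16.18 for 3W, and its readings of 2W and 3W overlapped. Krtap31-1 read 9.79 and 10.28 for 1W, 14.49 and 15.01 for 2W and 14.95 and 15.16 for 3W and was the highest Krtap gene of the comparison at 4.71 ± 0.02. Family members share sequence, so the probes of 1 family may share signal. From 2W to 3W the Krtap median was -0.38 ± 0.01 in MXD, where 2 genes fell, Krtap19-5 by 1.45 and Krtap3-2 by 1.17 on the log2 scale, and 0.71 ± 0.34 in VC, where 3 rose. VC on the N-CE arrays gave 0.59 ± 0.12. The 2310061N02Rik gene, second to Krt84 in the comparison of 2W with 1W, lies beside Krtap genes (chr16:88707461-88707520, mm9, with the Krtap13-1 probe at chr16:88729718-88729777), and read 7.40 and 7.48 for 1W, 12.94 and 13.04 for 2W and 11.82 and 12.05 for 3W. It rose by 5.55 ± 0.01 in MXD, and VC differed by 4.62 ± 0.14.

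**Figure D2:**
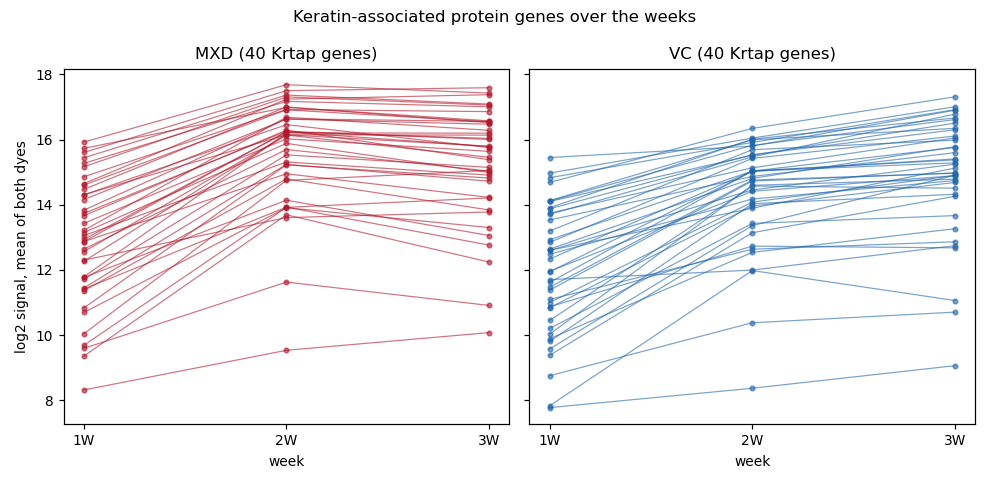
Mean log2 signal of both dyes at 1W, 2W and 3W for each of the 40 measured Krtap genes in MXD (left, red) and VC (right, blue); 1 line is 1 gene and each group was normalized on its own, so levels are to be read within a panel. All 40 lines climb from 1W to 2W in MXD, and 31 of them are lower at 3W than at 2W in both dyes.

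The promoters of the 3 Krtap genes with the largest 2W over 1W difference are shown because these genes moved together (RefSeq, GRCm38.p6, the 100 bases before the annotated start, 5′ to 3′, with each forward TATAA in capitals). They lie at chr11:99907820-99907919 on the plus strand, chr16:88874270-88874369 on the minus strand and chr16:88828909-88829008 on the plus strand.
Krtap31-1: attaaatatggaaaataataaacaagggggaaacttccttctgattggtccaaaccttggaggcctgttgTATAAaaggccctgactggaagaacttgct
Krtap19-2: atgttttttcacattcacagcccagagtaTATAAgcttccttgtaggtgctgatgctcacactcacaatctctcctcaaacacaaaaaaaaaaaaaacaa
Krtap15: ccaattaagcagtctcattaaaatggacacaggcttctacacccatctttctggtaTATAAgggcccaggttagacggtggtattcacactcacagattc
Within 250 bases before the start, TATAA stood on either strand in 37 of 38 promoters found for the Krtap genes (38 of 42 names matched). For the hair shaft keratins it stood in 6 of 7, for chemokines and cytokines in 21 of 43 and for interferon-induced genes in 6 of 19. The share over all 32851 promoters searched was 22.8%. The TATA box is the core promoter element bound by the TATA-binding protein, and a match of these letters is a description of sequence and not a mapped site.

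Regulators of the hair matrix were highest at 2W. Of 16 measured matrix transcription factors, 9 rose and 0 fell from 1W to 2W. The median was 1.35 ± 0.01 in MXD, 0.51 ± 0.03 in VC and 1.92 ± 0.10 in N-CE. Foxn1, the factor that is lost in nude mice and drives hair keratin genes, read 9.89 and 10.00 for 1W, 12.30 and 12.46 for 2W and 11.67 and 11.82 for 3W. The 2W readings were the highest, and those of 3W lay between 1W and 2W. It rose by 2.44 ± 0.04 in MXD, beside 1.38 ± 0.28 in VC. Msx2 and Dlx3, homeobox factors of the matrix, rose by 1.80 ± 0.10 and 1.73 ± 0.11. Lef1, the Wnt effector of matrix and precortex, read 10.75 and 10.88 for 1W, 12.21 and 12.24 for 2W and 11.72 and 11.71 for 3W. Its order of weeks was 2W, 3W and 1W with no overlap, and it rose by 1.41 ± 0.07 at 2W, when VC differed by 0.42 ± 0.20. From 2W to 3W 1 of the 16 fell, Dlx1 by 1.09 on the log2 scale, beside 2.5% of all probes. The list medians were -0.50 ± 0.07 in MXD, 0.50 ± 0.08 in VC and 0.66 ± 0.23 in VC on the N-CE arrays.

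The sonic hedgehog, Wnt and BMP lists moved less as groups. Their 2W over 1W medians were 0.35 ± 0.16, 0.30 ± 0.02 and 0.14 ± 0.08 in MXD. In VC they were -0.23, -0.16 and 0.02. Sonic hedgehog is the signal that matrix cells send to drive follicle growth, and its receptor gene Ptch1 is also a target of the pathway. Ptch1 rose from 1W to 2W and fell from 2W to 3W. It read 6.38 and 6.54 for 1W, 8.21 and 8.49 for 2W and 6.24 and 6.02 for 3W, high at 2W alone. The VC channel showed the same shape for Ptch1, with 1.40 ± 0.22 to 2W and -1.75 ± 0.07 to 3W. Shh itself differed by 0.58 ± 0.04 and was not called. Of 23 measured Wnt ligands and targets 3 rose and 3 fell. The 2W over 1W counts of this paragraph stand beside 4.11% higher and 5.63% lower over all probes. Axin2, a target of Wnt signalling, rose by 1.72 ± 0.80 and then fell by 1.56 ± 0.14, and VC differed by 1.55 and -1.66. The ligands Wnt11 and Wnt5a rose by 1.17 and 1.12. Sfrp2, a secreted Wnt inhibitor made by fibroblasts, fell by 2.07 ± 0.05 and then rose by 1.36 ± 0.10 at 3W. Its relative Sfrp4 fell by 1.20 ± 0.09 and the inhibitor Dkk2 by 1.26 ± 0.11. Of 15 BMP genes 3 rose and 2 fell. Bmp2, Bambi and Nog rose by 1.31, 1.33 and 1.21, while the antagonist Grem1 fell by 1.14 on the log2 scale. Of 14 dermal papilla genes 1 rose, the protease gene Corin by 1.69 ± 0.26, and 4 fell, Crabp1, Fgf7, Vcan and Hey1. The list median was -0.75 ± 0.20 in MXD and -0.52 ± 0.12 in VC, where 3 of 15 fell. With both channels scaled to the spike-in controls, it was -0.41 ± 0.51 in MXD and -1.01 ± 0.23 in VC. VC was then the lower one. Fgf7, a growth factor for keratinocytes, fell by 1.45 ± 0.12 to 2W and rose by 1.34 ± 0.13 to 3W, beside -0.32 ± 0.02 and 0.47 ± 0.28 in VC.

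The median of the inner root sheath and companion layer was highest at 2W. Of 10 measured genes 4 rose from 1W to 2W with a list median of 0.75 ± 0.06, and 9 of 10 were lower at 3W than at 2W in both dyes with a median of -0.81 ± 0.10. Trichohyalin, Tchh, the filament-hardening protein of the sheath, read 15.57 and 15.66 for 1W, 16.29 and 16.21 for 2W and 15.15 and 15.34 for 3W and differed by -1.01 ± 0.19 from 2W to 3W, at the limit of the call. Padi3, which converts arginines of trichohyalin to citrulline, rose by 2.10 ± 0.04 at 2W and Crym and the companion layer keratin Krt75 by 1.94 and 1.20. Tchhl1, a relative of trichohyalin, was above background in 1 of 2 readings at 1W, was at least 9.34-fold higher at 2W, and fell by 1.36 ± 0.05 from 2W to 3W. In VC the list median was 0.24 ± 0.05 for 2W over 1W and 0.46 ± 0.35 for 3W over 2W.

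Pigment genes were higher from 2W on. Of 18 measured melanin synthesis genes 8 rose and 0 fell from 1W to 2W, with medians of 0.94 ± 0.08 in MXD and 0.33 ± 0.10 in VC. Tyrp1, an enzyme of black pigment, read 11.99 and 12.06 for 1W, 13.11 and 13.24 for 2W and 13.02 and 12.96 for 3W, and rose by 1.14 ± 0.04. Trpm1, a melanocyte ion channel, rose by 2.11 ± 0.03 and Oca2, a melanosome transporter, by 1.28 ± 0.01. The cystine transporter Slc7a11 rose by 2.50 ± 0.13 at 2W and fell by 1.73 ± 0.28 at 3W, where VC differed by -0.27 ± 0.06. Tyr, the rate-limiting enzyme, was not well above background at 1W and was so in both readings of 2W, at least 2.49-fold higher.

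Division genes differed by less than 2-fold in MXD. All 23 measured mitosis genes but 1 were higher at 2W than at 1W in both dyes, yet 0 were called, with a median of 0.52 ± 0.03 in MXD and 0.02 ± 0.05 in VC. In N-CE the median was 1.18 ± 0.13, and 14 of 24 rose. Mki67, the proliferation marker, read 13.34 and 13.26 for 1W, 13.66 and 13.62 for 2W and 13.57 and 13.54 for 3W. The 2W readings were the highest, those of 3W lay just below them and those of 1W below both, with a 2W over 1W difference of 0.34 ± 0.02 that was not called. A dimmer probe of Mki67 read 11.39 and 11.25 for 1W, 11.95 and 11.62 for 2W and 10.78 and 11.02 for 3W, so it too was highest at 2W but lowest at 3W. Of 24 DNA replication genes 0 were called either, with a median of 0.22 ± 0.03. For 3W over 2W the mitosis median was -0.20 ± 0.03 in MXD and 0.28 ± 0.08 in VC.

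**Figure D3:**
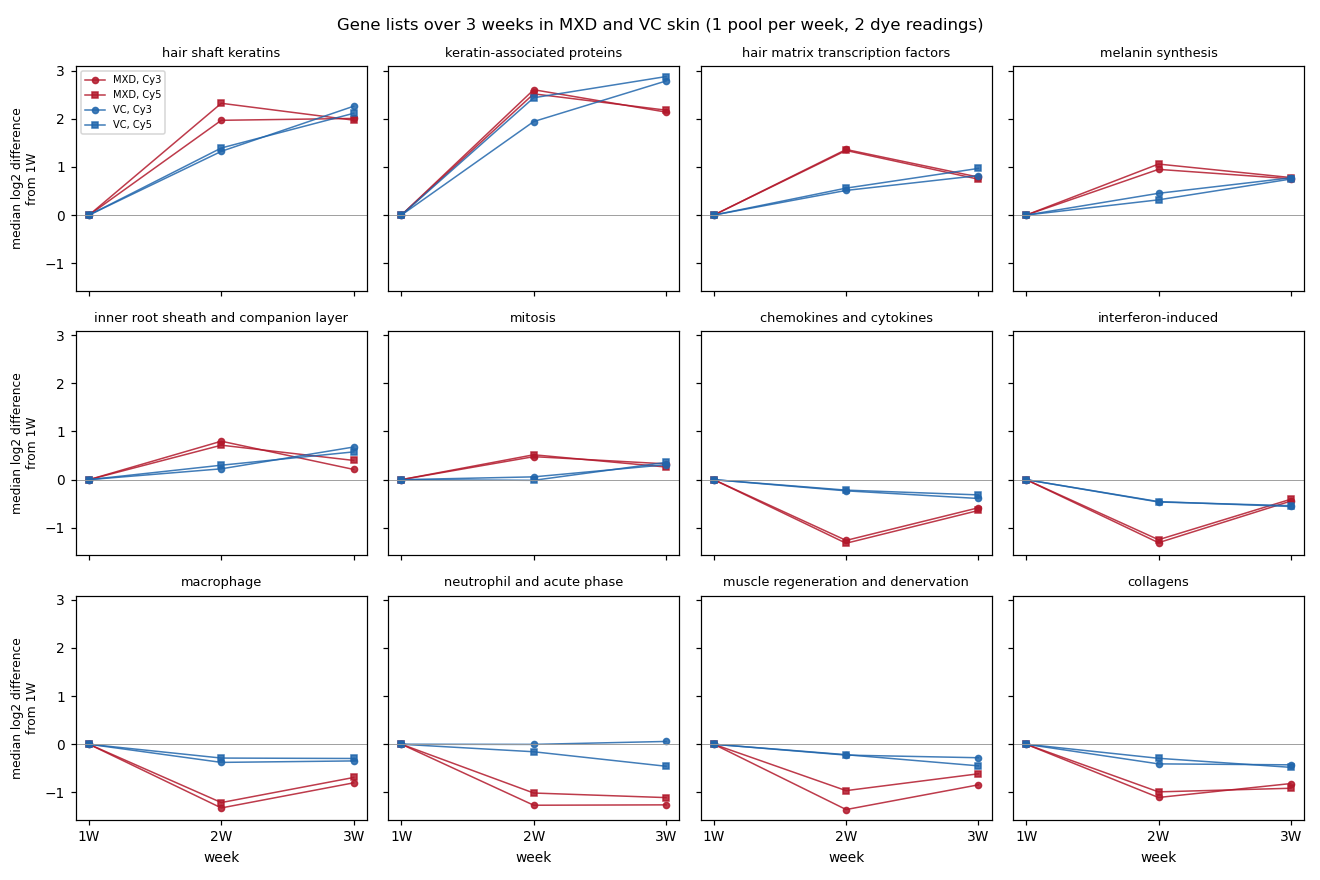
Median log2 difference from 1W of 12 gene lists at 1W, 2W and 3W, in MXD (red) and in VC of the same arrays (blue), with circles for Cy3, squares for Cy5 and 1 pool per point. The upper lists climb to 2W and flatten or turn in MXD while VC climbs on, and the immune, muscle and collagen lists drop to 2W in MXD by more than in VC on this scale, a contrast that shrank or was absent when both channels were scaled to the spike-in controls.

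Immune and acute phase genes were lower at 2W than at 1W in MXD skin. How far they differ from VC depends on the scale. With both channels scaled to the spike-in controls, the 2W over 1W medians in MXD and VC were -1.03 ± 0.35 and -0.74 ± 0.29 for chemokines and cytokines, -0.87 ± 0.13 and -0.87 ± 0.35 for macrophage genes and -0.94 ± 0.25 and -1.05 ± 0.28 for interferon-induced genes. Those of T and NK cells (-0.77 and -0.83), collagens (-0.71 and -0.81), matrix proteases (-0.72 and -0.85), muscle regeneration (-0.74 and -0.71), fast muscle (-0.42 and -0.64), angiogenesis (-0.54 and -0.80) and the KATP list (-0.64 and -0.60) were close to each other or lower in VC. The values below are on the quantile scale. Of 41 measured chemokines and cytokines 25 fell and 1, Cxcl14, rose, against a background of 5.63% lower probes, with a median of -1.36 ± 0.04 in MXD, -0.23 ± 0.01 in VC and -0.34 ± 0.06 in VC on the N-CE arrays. Cxcl5, a neutrophil attractant, read 8.75 and 8.76 for 1W, 2.61 and 2.34 for 2W and 2.53 and 2.40 for 3W, well above background at 1W and in neither later week, so it was at least 18.8-fold lower at 2W. The VC channel was not above background for Cxcl5 in any week. Ccl5, a T cell attractant, read 9.05 and 8.93 for 1W, 6.86 and 6.79 for 2W and 7.79 and 7.83 for 3W. It was lowest at 2W and intermediate at 3W, with a fall of 2.16 ± 0.03 beside a VC difference of -0.95 ± 0.34. Il1f8, the epidermal cytokine now called IL-36 beta, fell by 2.10 ± 0.17. From 2W to 3W 6 of 36 rose and 0 fell, beside 2.33% and 2.5% of all probes. Ccl7 and Ccl12, which attract monocytes, were higher by 1.64 and 1.36. Ccl7 read 11.08 and 11.12 for 1W, 9.39 and 9.68 for 2W and 11.20 and 11.14 for 3W, so 3W stood just above 1W. The 3W median stayed below 1W at -0.56 ± 0.04.

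Genes of neutrophils and of the acute phase stayed low after 1W. Of 20 measured genes 9 fell from 1W to 2W and 0 rose from 2W to 3W, with medians of -1.09 ± 0.18 and -0.31 ± 0.22. Saa3, an acute phase serum amyloid (chr7:53968031-53968090, mm9), read 10.93 and 10.82 for 1W, 6.84 and 7.18 for 2W and 6.91 and 6.47 for 3W. The 1W readings stood far above all later ones, and the fall was 3.87 ± 0.32 (14.6-fold). In VC it read 6.07 and 5.92 for 1W, 6.15 and 5.37 for 2W and 7.20 and 7.06 for 3W, with no high value at 1W. S100a8, an alarmin of neutrophils and stressed keratinocytes, read 12.77 and 12.39 for 1W, 11.39 and 11.58 for 2W and 10.95 and 11.07 for 3W and differed by -1.10 ± 0.39, short of the call in 1 dye, while VC read 9.46 and 9.88 for 1W, 10.69 and 10.37 for 2W and 11.13 and 11.00 for 3W and differed by 0.86 ± 0.52 in the opposite direction. Stfa1 and Stfa3, inhibitors of cysteine proteases, fell by 2.45 and 2.92, and VC differed by 0.74 ± 0.35 and -0.27 ± 0.32. The summed signal of the neutrophil markers S100a8 and S100a9 changed by -1.74 ± 0.31 in MXD and 0.67 ± 0.45 in VC, and its part in the list was not tested.

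Macrophage, T cell and interferon lists were lower at 2W than at 1W, and 3W lay between. Of 17 macrophage genes 12 fell and 1 rose, with a median of -1.29 ± 0.08 in MXD and -0.38 ± 0.06 in VC. Msr1, a scavenger receptor, and Ms4a7 fell by 2.00 ± 0.23 and 2.00 ± 0.07. C1qa, the complement subunit made by macrophages, read 12.69 and 12.74 for 1W, 11.18 and 11.34 for 2W and 12.28 and 12.26 for 3W and fell by 1.45 ± 0.09. Its 3W readings lay between, 1.01 ± 0.13 above 2W, which was not called. Of the list 2 rose from 2W to 3W, Marco and Msr1. The gene that rose at 2W was Gpnmb, which melanocytes also express. Of 17 T and NK cell genes 9 fell, among them the NK receptor Klrd1 by 1.70 ± 0.14 and the T cell receptor subunit Cd3g by 1.29 ± 0.11. Cd4, the helper T cell coreceptor, went the other way, at least 5.99-fold higher at 2W, and by at least 4.13-fold in VC. Of 20 interferon-induced genes 13 fell and 0 rose, with all 20 lower in both dyes. Rsad2 and Oas1a, antiviral effectors, fell by 2.00 ± 0.12 and 1.94 ± 0.03. The list median was -1.29 ± 0.04 to 2W and 0.83 ± 0.11 to 3W in MXD, -0.57 ± 0.01 and -0.04 ± 0.01 in VC, and -0.63 ± 0.15 and -0.15 ± 0.08 in VC on the N-CE arrays. N-CE skin had 2W over 1W medians of -0.999 for interferon-induced genes, with 9 called lower, -0.79 for chemokines, -0.80 for macrophage and -0.84 for T and NK cell genes. Of 9 mast cell genes 3 fell, Cma1, Fcer1a and Cpa3, and 1 rose, the receptor gene Kit, which melanocytes express too, with a median of -0.92 ± 0.05 in MXD, -0.20 ± 0.06 in VC and -0.90 in N-CE.

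The epidermis moved in both directions. Of 34 measured cornified envelope genes 6 rose and 13 fell from 1W to 2W. The list median was -0.88 ± 0.02 in MXD and 0.10 ± 0.05 in VC. With both channels scaled to the spike-in controls, these medians were -0.53 ± 0.26 and -0.36 ± 0.22. On that scale 8 genes were called higher and 2 lower in MXD, and 6 and 1 in VC. The values below are on the quantile scale. Sprr2d, a small proline-rich envelope protein induced in stressed epidermis (chr3:92144721-92144780, mm9), read 11.54 and 11.35 for 1W, 6.63 and 6.55 for 2W and 7.03 and 7.00 for 3W. It was high at 1W alone and fell by 4.86 ± 0.08 (29-fold), whereas VC read 8.02 and 8.60 for 1W, 8.20 and 8.11 for 2W and 7.60 and 7.70 for 3W. A probe of Sprr2a1 fell by 3.63 ± 0.06, while a brighter probe of the same gene differed by 0.31. The Sprr2 genes are close copies, so their probes may share signal. Late cornified envelope genes of group 1 moved together, and whether their probes share signal was not tested. Lce1a1, Lce1b, Lce1c, Lce1d, Lce1e, Lce1f, Lce1i, Lce1l and Lce1m fell by 1.09 to 1.33 on the log2 scale, with VC differences between -0.11 and 0.17, and Hrnr and Flg2, relatives of filaggrin, fell by 1.70 and 1.24. Sprr2h, Sprr2f and Tgm3 rose by 3.87, 2.82 and 3.35, and in VC Sprr2h and Tgm3 differed by 3.67 and 2.21. Tgm3 crosslinks envelope and inner root sheath proteins. Filaggrin, Flg, the protein of the granular layer, read 12.31 and 12.59 for 1W, 10.79 and 10.57 for 2W and 8.80 and 9.09 for 3W. It stepped down in each week in MXD, by 3.50 over both steps on the log2 scale, and by 2.58 in VC.

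Of the 4 wound keratins, Krt16 was the one that fell. This keratin of activated epidermis and of the follicle's outer root sheath read 14.63 and 14.66 for 1W, 13.33 and 13.46 for 2W and 12.70 and 13.00 for 3W in MXD and 11.72 and 12.03 for 1W, 12.60 and 12.57 for 2W and 13.45 and 13.38 for 3W in VC. The MXD readings were highest at 1W and those of VC highest at 3W, with 2W over 1W differences of -1.25 ± 0.07 and 0.71 ± 0.24. Krt6a and Krt17 differed by 0.71 ± 0.04 and 0.28 ± 0.03 in MXD and were not called. Of 8 epidermal keratins 2 fell from 1W to 2W, Krt1 by 1.71 ± 0.44 and Krt10 by 1.20 ± 0.13, both of the layers above the basal one. Krt10 then rose by 1.18 ± 0.17 and Krt2 by 1.20 ± 0.08 at 3W, while Krt2 in VC differed by -0.93 ± 0.29.

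Genes of regenerating or denervated muscle were highest at 1W. Of 16 measured genes of that list 8 fell and 0 rose from 1W to 2W. The median was -1.09 ± 0.28 in MXD, -0.23 ± 0.01 in VC and -0.42 ± 0.01 in VC on the N-CE arrays. In N-CE it was -0.70 ± 0.07, and 3 of 14 fell. Myog, the myogenic factor of differentiating muscle, read 8.70 and 8.48 for 1W, 5.29 and 6.14 for 2W and 6.60 and 6.74 for 3W. It was highest at 1W, and its 2 readings of 2W differed by more than those of other weeks. The fall was 2.88 ± 0.75, while VC differed by -0.43 ± 0.01. Ankrd1, a stretch-induced muscle gene, read 10.57 and 10.74 for 1W, 4.44 and 5.56 for 2W and 7.05 and 7.23 for 3W, with 1 of 2 readings above background at 2W, and was at least 43.2-fold lower there. Myh3, embryonic myosin, was above background at 1W alone and at least 10.9-fold lower at 2W. Chrna1, the acetylcholine receptor subunit that rises on denervation, fell by 2.42 ± 0.02, and VC differed by -0.46 ± 0.01. Sln, sarcolipin, a regulator of the calcium pump, read 14.05 and 14.01 for 1W, 10.20 and 10.36 for 2W and 10.84 and 11.15 for 3W and fell by 3.75 ± 0.14. In VC it read 12.73 and 12.93 for 1W, 12.09 and 11.99 for 2W and 10.81 and 10.71 for 3W, so it was lower at 3W there too.

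Mature fast muscle genes moved less. All 24 measured genes were lower at 2W than at 1W in both dyes, 3 of them called (Actn3, Cacna1s and Myh2), with a median of -0.79 ± 0.08, and 22 were higher again at 3W in both dyes with a median of 0.52 ± 0.11. VC medians were -0.16 ± 0.02 and -0.38 ± 0.10, and those of N-CE were -0.54 ± 0.09 and -0.23. Ckm, muscle creatine kinase, read 13.91 and 14.36 for 1W, 13.13 and 13.78 for 2W and 13.70 and 14.14 for 3W, with the readings of 2W below those of 1W and those of 3W across both. The summed signal of Ckm, Acta1 and Myh4 changed by -0.75 ± 0.18 and 0.62 ± 0.22 over the 2 steps, and how much muscle each pool of skin held was not measured.

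Collagens and matrix proteases were lower at 2W than at 1W. Of 19 measured collagens 9 fell and 0 rose, with a median of -1.05 ± 0.08 in MXD and -0.37 ± 0.08 in VC, and a 3W over 1W median of -0.83 ± 0.07 in MXD. Col1a2, a chain of the main dermal collagen, fell by 1.58 ± 0.07. Col14a1 and Col5a1, which shape collagen fibrils, fell by 1.42 ± 0.02 and 1.45 ± 0.08. Of 19 matrix proteases and inhibitors 8 fell, with a median of -1.06 ± 0.24 in MXD and -0.36 ± 0.14 in VC. In N-CE the 2W over 1W medians of the collagen and protease lists were -0.32 ± 0.29 and -0.61 ± 0.04. Timp1, the inhibitor of matrix metalloproteases, read 12.55 and 12.38 for 1W, 10.30 and 10.35 for 2W and 10.61 and 10.56 for 3W, with 2W and 3W close together and both far below 1W, and fell by 2.13 ± 0.16. Mmp3, stromelysin, fell by 1.49 ± 0.08. In VC Timp1 and Mmp3 differed by -0.65 and -0.10. Spp1, osteopontin, a matrix protein made by macrophages and healing tissue (chr5:104869788-104869847, mm9), read 11.86 and 11.88 for 1W, 8.10 and 7.95 for 2W and 9.14 and 9.19 for 3W. It fell by 3.85 ± 0.12 and rose by 1.14 ± 0.14, beside VC differences of -0.26 ± 0.29 and -0.14 ± 0.47.

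**Figure D4:**
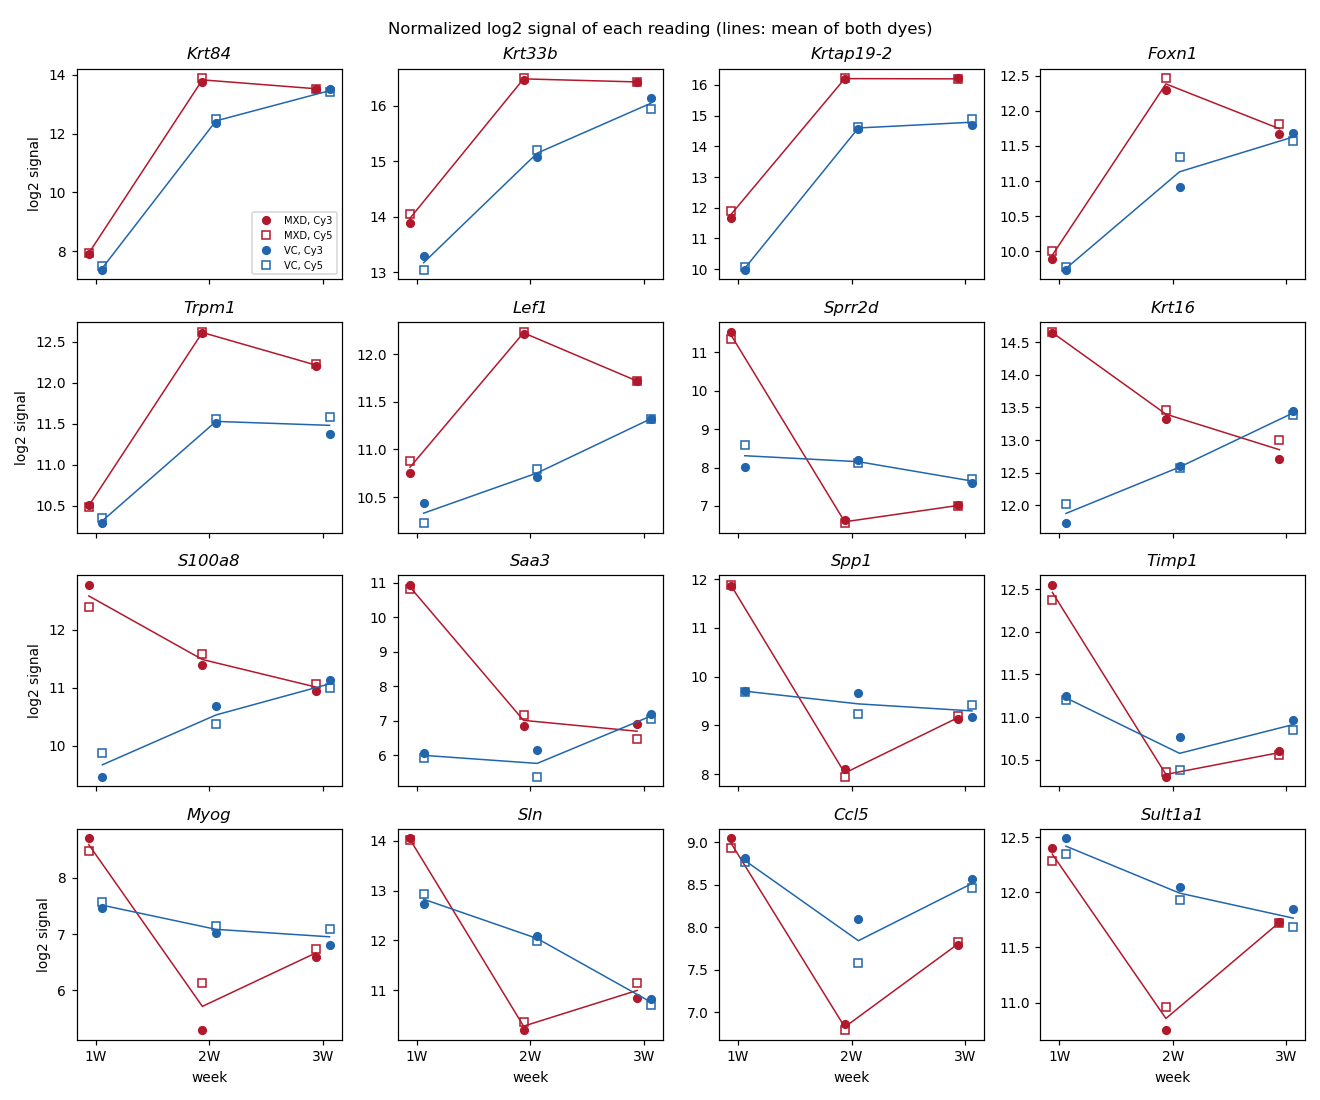
Normalized log2 signal of 16 genes at 1W, 2W and 3W, with filled circles for Cy3, open squares for Cy5 and lines through the mean of both dyes, in MXD (red) and VC (blue); each group was normalized on its own, so weeks are to be compared within a colour. Hair and pigment genes of MXD are high from 2W on, and Sprr2d, Krt16, S100a8, Saa3, Spp1, Timp1, Myog and Sln are highest at 1W.

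Subunits of the vascular KATP channel and the sulfotransferase of skin were lowest at 2W. Of 9 measured genes of the KATP channel and sulfotransferase list 4 fell and 0 rose from 1W to 2W, with a median of -0.98 ± 0.21 in MXD, -0.11 ± 0.01 in VC, -0.41 ± 0.09 in VC on the N-CE arrays and -0.97 ± 0.14 in N-CE. Abcc9, the sulfonylurea receptor subunit of the vascular KATP channel, read 10.15 and 10.20 for 1W, 9.02 and 9.07 for 2W and 9.65 and 9.71 for 3W. It fell by 1.13 ± 0.01 and differed by 0.63 ± 0.00 at 3W. Kcnj8, the pore subunit of the same channel, fell by 1.10 ± 0.14 and rose by 1.09 ± 0.10. Sult1a1, the sulfotransferase that activates minoxidil, read 12.41 and 12.29 for 1W, 10.75 and 10.96 for 2W and 11.73 and 11.73 for 3W, with 3W between 1W and 2W, and fell by 1.49 ± 0.23. VC differed by -0.43 ± 0.01. Ptgs1, cyclooxygenase 1, fell by 1.25 ± 0.06. Of 21 angiogenesis genes 3 fell, beside the 5.63% of all probes, Vegfc by 1.33 ± 0.07, the endothelial receptor gene Tek by 1.04 ± 0.02 and the endothelial clotting factor gene Vwf by 1.26 ± 0.07, with a list median of -0.88 ± 0.01 in MXD, -0.30 ± 0.05 in VC, -0.51 ± 0.10 in VC on the N-CE arrays and -0.77 ± 0.16 in N-CE.

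Fat and sebaceous genes were mostly below the call. Of 16 adipocyte genes 1 fell at 2W, Cidea, a share near the 5.63% of all probes. The 2W over 1W median was -0.65 ± 0.09 in MXD, -0.10 ± 0.03 in VC and -0.55 in N-CE, where 4 fell. For 3W over 2W it was 0.50 ± 0.06 in MXD. With both channels scaled to the spike-in controls, the adipocyte medians for 2W over 1W were -0.24 ± 0.10 in MXD and -0.53 ± 0.19 in VC. Those of the sebaceous list were then -0.435 and -1.19, so VC was the lower one in both lists. Adipoq, adiponectin, read 14.01 and 14.04 for 1W, 13.52 and 13.64 for 2W and 14.19 and 14.32 for 3W, lowest at 2W, with a difference of -0.44 ± 0.06. Of 14 sebaceous lipid genes 2 fell, Plin5 and Cidea, and 1 rose, Fads2, and the median was -0.81 ± 0.03 in MXD and -0.73 ± 0.02 in VC. In the erythrocyte list, Ahsp, the chaperone of alpha globin, rose by 3.32 ± 0.10 and the anion exchanger Slc4a1 by 2.25 ± 0.08, while the globin gene Hba-a1 fell by 1.40 ± 0.06. In VC these 3 differed by 2.88, 1.24 and -0.79. Of 10 vascular smooth muscle genes 3 fell, Myh11, Cnn1 and Des, and of 9 slow muscle genes 2 fell, Tnnt1 and Casq2. The medians of these 2 lists were -0.71 and -0.60 in MXD and -0.48 and -0.34 in VC. In VC 0 of 10 and 3 of 10 fell. With both channels scaled to the spike-in controls, the medians were -0.37 and -0.26 in MXD and -0.93 and -0.81 in VC. VC was then the lower one in both lists. Nr4a1 and Atf3 were the 2 of 20 immediate early genes that fell. Insig1, a sensor of sterols, was the 1 of 21 cholesterol genes that rose, and Postn the 1 of 18 stem cell and bulge genes that fell, shares near the 4.11% higher and 5.63% lower over all probes. None of the 16 clock genes, 25 oxidative phosphorylation genes or 14 reference genes was called, with medians of -0.48 ± 0.03, -0.30 ± 0.10 and -0.09 ± 0.04.

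Between 2W and 3W the lists of MXD and VC skin lay mostly on different sides of 0. Medians of the interferon, chemokine, T cell, macrophage, adipocyte, fast muscle and KATP lists were above 0 in MXD, between 0.50 and 0.83, and between -0.38 and 0.02 in VC. Hair shaft keratins, Krtap genes, matrix factors, wound keratins and the inner root sheath were below 0 in MXD, between -0.81 and -0.28, and between 0.46 and 0.84 in VC. The reference list of housekeeping genes had a median of -0.02 ± 0.06 in MXD and -0.08 ± 0.10 in VC. Under the scalings tried, the MXD medians of these 12 lists kept their sign. With both channels scaled to the spike-in controls, the VC medians of the first group lay between -0.06 and 0.48, above 0 for 6 of the 7 lists as in MXD, and those of the second between 0.74 and 1.15, still opposite to MXD. On the N-CE arrays the VC medians of the first group lay between -0.26 and 0.01 and those of the second between 0.22 and 0.78. With 1 pool each, these differences between MXD and VC were not tested.

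**Figure D5:**
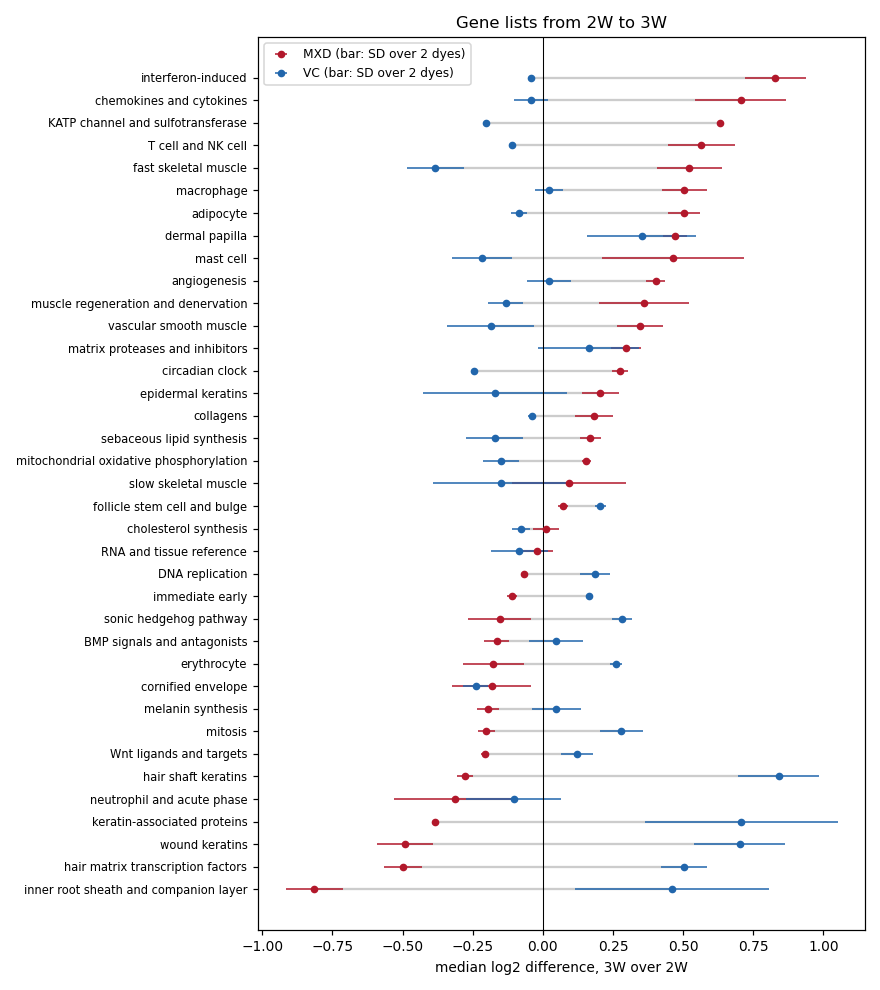
Median log2 difference of 3W over 2W for all 37 gene lists in MXD (red) and VC of the same arrays (blue), with bars for the SD over the 2 dyes and grey lines joining the pair. Interferon-induced genes stand highest in MXD at 0.83 and the inner root sheath lowest at -0.81, while the VC points of these lists lie at -0.04 and 0.46, and at 0.43 and 0.74 when scaled to the spike-in controls.

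Most single genes with the largest 3W over 2W differences were called in VC as well. Among probes above background in both weeks, the 6 lowest in MXD were Usp42, Rmrp, Snord33, Snora52, Ddx25 and Hmgb1-rs17, between -2.94 and -2.42. Rmrp is the RNA of the nuclear ribonuclease MRP, and Snord33 and Snora52 are nucleolar guide RNAs. Rmrp read 10.97 and 11.36 for 1W, 10.70 and 10.98 for 2W and 8.21 and 8.35 for 3W in MXD and 10.18 and 10.76 for 1W, 10.76 and 10.87 for 2W and 7.86 and 8.25 for 3W in VC, low at 3W in both. Its differences were -2.56 ± 0.11 and -2.76 ± 0.20, and the VC values of all 6 lay between -3.17 and -1.66. Of 5 measured snoRNA probes 3 fell in MXD and 2 in VC, a group set up after these values were seen. All 3W readings of both groups come from 1 slide. Mucl1, which encodes a small mucin-like secreted protein, had the highest 3W over 2W difference among probes above background in both weeks and was an exception. It read 8.04 and 8.00 for 1W, 6.81 and 6.35 for 2W and 9.71 and 9.78 for 3W, lowest at 2W, and rose by 3.17 ± 0.38, where VC differed by 0.43 ± 0.26. Map2k7 and 5830462O15Rik rose by 2.59 and 2.32 in MXD and by 2.42 and 2.17 in VC, Nova1 by 2.42 in MXD with 1.46 in VC, and Ptger2, with no complete set of VC readings, by 2.72. Some genes at these extremes had other measured probes that differed by less or went the other way. The Srgap1 probe that rose by 2.19 stands beside one that fell by 1.51 and a brighter one that differed by -0.20, so this gene has no settled direction. A brighter Map2k7 probe differed by 0.44 in MXD and 0.60 in VC, and a second Usp42 probe by -0.83. Among probes dim in 1 week, Slc24a4, 4930433I11Rik and Tox3 were at least 13.0-fold, 11.4-fold and 10.6-fold higher at 3W in MXD. In VC the former 2 were at least 10.4-fold and 9.67-fold higher and Tox3 rose by 2.81. Anp32a, Fam13c and Prpf38b, with 1 of 2 readings above background at 3W, were at least 6.17-fold, 6.17-fold and 5.85-fold lower, and in VC at least 4.29-fold, 6.99-fold and 3.91-fold. Brighter probes of Anp32a and Fam13c differed by 0.49 and 0.89 and a second Slc24a4 probe by 0.03, all measured in both weeks and not called.

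The other genes at the upper end of the first step were called in VC too. The 6 highest included Olfr1134, Csn3 and Prss3 besides Krt84, Krtap31-1 and 2310061N02Rik, with MXD differences of 5.25, 4.92 and 4.63 and VC differences of 5.08, 4.37 and 4.14. A dim second probe of Prss3 differed by 0.10. Gene names are those of the array design or of RefSeq. Crisp1, Tm4sf4 and Drc7 were not well above background in both readings of 1W and were at least 65.8-fold, 62.7-fold and 38.6-fold higher at 2W. For Crisp1 no reading of 1W was above background in VC either, and 2W was at least 39.9-fold higher there. Among probes above background in both weeks Clca3a1 had the lowest value, -5.34 ± 5.71, but it rested on 1 array. It read 13.96 and 14.12 for 1W, 12.65 and 4.75 for 2W and 13.17 and 13.44 for 3W in MXD, and its VC reading on the array of the low value was low as well, at 6.45 against 14.03 on the other. Aox1 had the same pattern, with 9.37 and 2.45 at 2W in MXD. On that array 15 of 25013 probes read over 4-fold lower in both channels than on the dye-swap array.

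At 3W, hair genes stood above their 1W level in MXD skin and acute phase and envelope genes below it. Krt84, Krtap31-1, Krtap31-2, 2310061N02Rik, Prss3 and Krtap19-2 were the 6 highest among probes above background in both weeks, between 4.41 and 5.58, and their VC differences lay between 4.54 and 6.01. Sprr2d, Saa3, Clec4d, Stfa3, Ankrd1 and Flg were the 6 lowest of these, between -4.43 and -3.50. Their VC differences were -0.66, 1.14, -0.78, -1.47, -0.91 and -2.58. Clec4d, a lectin receptor of neutrophils and macrophages, read 10.30 and 10.30 for 1W, 6.95 and 6.72 for 2W and 6.55 and 6.41 for 3W. Mug1, a protease inhibitor, was below background at 3W in both groups, at least 17.4-fold lower in MXD and 16.5-fold in VC, and Gsdmc, a gasdermin with 1 of 2 readings above background at 3W, was at least 9.1-fold lower in MXD. Crisp1 and Tm4sf4 were at least 77.0-fold and 44.1-fold higher at 3W than at 1W. Meltf, at least 23.3-fold higher, rested on 1 of its 3W readings, which were 5.93 and 12.38.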

How the data were processed

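RNA of whole back skin, pooled from 6 mice per group and week, was labelled with Cy3 and with Cy5 and hybridized as dye-swap pairs to Agilent 4x44K mouse arrays. The intensities deposited by the authors came from Agilent Feature Extraction (version 12.0.3.1 per the file headers, 11.0.1.1 in the submitters' processing notes), which subtracted the background, detrended each array and normalized the dyes within the array by LOWESS. That step draws both channels of an array together, so a shift of MXD as a whole against VC would be reduced. The deposited series table holds log ratios of the channels and was not used.

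Control spots and outlier spots were left out, and the processed signals of 41174 probes (43379 spots) were averaged per probe, log2-transformed and quantile normalized over the weeks within each dye and group (Python 3.11.15, numpy 2.4.6, pandas 2.3.3). Differences were the mean over the 2 dyes. The comparisons were 2W over 1W, 3W over 2W and 3W over 1W, and none could be tested with 1 pool per group and week. Where a probe was not well above background in both readings of a week, the difference is a bound, taken against the higher of its own value and the lowest signal well above background of that array, and written as "at least". Probes have a RefSeq symbol (27816) or another name of the array design (34904 with either), and 76 probes without all 6 MXD readings were left out. Each gene of a list stands for 1 probe, the brightest on average over the MXD readings. Probe positions are mm9 as in the files.

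The 37 lists and the members were chosen with earlier results of these data known. Named genes are the 6 highest and 6 lowest called genes of each comparison, the 3 largest bounds in each direction, the 2 to 4 members of a list with the largest absolute difference, and Lef1, Shh, Krt33b, Tyrp1, Mki67, Ckm, Krt16, S100a8, Cxcl5, Adipoq, Abcc9 and Sult1a1. Other list members are named where a count was small or a member differed from its list, and these were chosen after their values were seen. A few list members are not reported here. The call was tested on simulated data, with shifts set only in probes well above background in all MXD readings. The bound was therefore not tested. The alternatives were scaling to the 75th percentile, quantile normalization over all arrays, normexp background correction (R 4.3.3, limma 3.58.1, offset 50), each dye alone, fold limits of 1.5 and 0.75, other filters on dim probes and outlier spots, all probes of a gene, and scaling to the spike-in controls in MXD and in VC, which was added after seeing the data.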

Additional observations from a re-analysis of the deposited data

Results flagged for a closer look

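These results moved in opposite directions in the MXD and VC channels of the same arrays, each by over 1.25-fold in both dyes. With 1 pool per group and week, the difference between the groups was not tested for any of them. With both channels scaled to the spike-in controls, 15 of the 16 kept opposite signs in both dyes, some of them by less than 1.25-fold. The wound keratin median for 3W over 1W was then -0.091 in MXD. For 3W over 2W, S100a8 was -0.309 in MXD and Sprr2d -0.110 in VC. The low probe of Sprr2a1 differed by 0.494 and 0.013. All values are log2 differences, MXD first and VC second.

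Krt16 and S100a8, genes of activated epidermis, went opposite ways in MXD and VC in all 3 comparisons. Krt16 differed by -1.251 and 0.710 for 2W over 1W, by -0.545 and 0.830 for 3W over 2W and by -1.796 and 1.539 for 3W over 1W. S100a8 differed by -1.096 and 0.859, by -0.475 and 0.536 and by -1.571 and 1.396 for the same comparisons. The median of the 4 wound keratins differed by -0.492 and 0.702 for 3W over 2W and by -0.512 and 1.259 for 3W over 1W, and Saa3 differed by -4.183 and 1.137 for 3W over 1W.

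From 2W to 3W hair genes were lower in MXD and higher in VC. The Krtap median differed by -0.385 and 0.708, the median of the matrix transcription factors by -0.499 and 0.503, and Lef1 by -0.506 and 0.568. Csn3, which encodes kappa-casein, differed by -1.110 and 0.558. Genes that had been high at 1W in MXD went the other way. Sln differed by 0.718 and -1.276, Sprr2d by 0.426 and -0.504, and the low probe of Sprr2a1 by 0.426 and -0.374.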

How the results depend on the processing

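The 6 counts of called probes kept within 1.5 times their value when readings were scaled to the 75th percentile, normalized over all arrays or averaged with outlier spots kept. Normexp background correction, whose offset shrinks the differences of dim probes, left 554 higher and 635 lower probes for 2W over 1W, 104 and 206 for 3W over 2W and 313 and 230 for 3W over 1W. The fold limits of 1.5 and 0.75 are wider and gave 2794 and 4830, 2079 and 3480, and 2164 and 3876. A single dye, which asks for no agreement, called 1689 higher probes in Cy5 for 2W over 1W, 1066 higher and 1334 lower in Cy3 and 912 and 968 in Cy5 for 3W over 2W, and 1091 lower in Cy3 and 1067 in Cy5 for 3W over 1W. With both weeks above background 334 probes rose from 2W to 3W. Without a filter 1128 rose and 1224 fell from 2W to 3W, and 1473 and 1265 did between 1W and 3W. Scaling to the spike-in controls gave 1990 and 372 for 2W over 1W and 1943 and 167 for 3W over 1W, and the cause was not tested. Under it the medians for 2W over 1W turned to 0.039 for the stem cell and bulge list, 0.092 for oxidative phosphorylation and 0.386 for the reference list, and those for 3W over 2W to 0.049 for DNA replication and 0.009 for immediate early genes. For 3W over 1W they turned to 0.001 for dermal papilla, 0.455 for bulge, 0.059 for epidermal keratins, 0.138 for fast muscle, 0.215 for vascular smooth muscle, 0.017 for interferon, 0.093 for sebaceous, 0.079 for angiogenesis, 0.290 for KATP and 0.202 for oxidative phosphorylation. The reference median for 2W over 1W also turned with the 75th percentile (0.036), with all arrays (0.020) and with all probes of a gene (0.026), and the bulge median for 3W over 2W with all probes (-0.043). No other list median turned, and no called gene among the named genes and list members changed direction. Of 5508 values of named genes and list members under the alternatives 1359 moved by more than the SD over the dyes. That total holds 921 values for each dye alone. These cannot pass the limit, because the main value is the mean of both dyes. No paired analysis was possible because each group and week is 1 pool. Signals near background limit the bounds given for dim probes, and with 2 technical readings the spread between mice is unknown.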
